A study of Mus musculus with 2 samples.

Results

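The data are snRNAseq UMI counts of 9 genes of the complement system, C1qa, C1qb, C1qc, C4b, C3, C3ar1, Itgam, Cd55 and Serping1, out of the 31053 genes measured. They were chosen as named complement components, receptors and regulators and were found by symbol in the feature tables of both libraries. Nuclei came from the entorhinal cortex of male APP/PS1 mice, a transgenic line that deposits amyloid in the brain, and all mice of both groups carried the transgenes. The OLE group had received N-oleoyl-leucine (C18:1-Leu) at 25 mg/kg/day in alkaline drinking water, and the vehicle group DMSO, from 15 to 18 months of age. Each group was 1 library made from the pooled tissue of 5 mice. Differences between mice or between preparations therefore could not be separated from the treatment, and no test was run between the groups. All intervals are 95% intervals for counting error only.

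Complement is a set of proteins that tag material for removal and call in immune cells. In the classical pathway C1q binds a target, its proteases cut C4 and C2, and the resulting enzyme cuts C3. The fragment C3a that is released acts through its receptor C3aR, and the pieces left on the target are recognised by complement receptor 3. Regulators such as C1 inhibitor and CD55 limit the cascade. In the brain C1q is made mainly by microglia, and complement is known for the removal of synapses by these cells.

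There were 6745 nuclei with 70845739 UMIs in vehicle and 6173 nuclei with 69485537 UMIs in OLE, and 14 barcodes occurred in both. A UMI marks 1 captured RNA molecule. Levels are in counts per 1000000 (CPM), the UMIs of a gene scaled to all UMIs of a cell type in a library, counted over introns and exons, so they compare a gene between cell types and libraries and not 1 gene with another. After 331 vehicle and 289 OLE nuclei with the highest doublet scores had been left out, 8 cell types were named from marker genes, with the members and 40 other complement genes left out of the clustering. Of the retained nuclei, 2908 vehicle and 2527 OLE nuclei lay in 4 clusters without a name. Clusters 0 and 1 among them were split by library, with 2221 and 302 nuclei of cluster 0 and 248 and 1719 nuclei of cluster 1 in vehicle and OLE. The microglia-like cluster held 339 vehicle and 270 OLE nuclei and had all 11 microglial markers raised, with Inpp5d, Ly86, Ikzf1 and Csf1r among its leading genes.

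C1qa, C1qb and C1qc encode the chains of C1q, the molecule that starts the classical pathway. The genes lie side by side within 18675 bases of chromosome 4 of GRCm38 (136880129 to 136898803), in the order C1qb, C1qc and C1qa, all on the minus strand and with no other annotated gene between them. They span 6059, 3262 and 2887 bases. Among all cell types the microglia-like nuclei had the highest level of each chain in both libraries. To show the sequence upstream of these neighbouring genes, the RefSeq promoter sequences (GRCm38.p6, 5′ to 3′ on the strand of the gene) are given for C1qb at chr4:136886201-136886450 and for the part of C1qc outside its annotated gene at chr4:136893066-136893164, with capitals marking GAGGAA on either strand. This purine-rich core is the kind of site that ETS factors such as PU.1 of myeloid cells bind.
C1qb: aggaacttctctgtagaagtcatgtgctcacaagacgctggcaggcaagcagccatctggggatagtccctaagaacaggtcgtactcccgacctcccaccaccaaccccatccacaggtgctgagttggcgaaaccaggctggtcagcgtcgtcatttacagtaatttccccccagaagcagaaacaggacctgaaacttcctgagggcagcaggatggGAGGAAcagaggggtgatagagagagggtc
C1qc: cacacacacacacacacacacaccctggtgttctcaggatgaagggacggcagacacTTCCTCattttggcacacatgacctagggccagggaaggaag
GAGGAA began 30 bases before the RefSeq start of C1qb and, on the other strand, 193 bases before that of C1qc. It was found within 250 bases upstream in 3 of the 6 members with an entry (C1qb, C1qc and Itgam), and in 23.3% of the 32851 promoters of the table. A match of these letters is a description and not a bound site. TTCNNNGAA, the core bound by STAT factors, was in none of the 6, against 7.02% of all promoters. C1qa, C4b and Serping1 have no entry.

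In microglia-like nuclei C1qa gave 661 UMIs in vehicle and 826 in OLE, levels of 749.7 (694 to 809) and 1149 (1072 to 1230) CPM. C1qb gave 533 and 672 UMIs, at 605 (554 to 658) and 935 (866 to 1008) CPM. C1qc gave 521 and 531 UMIs, at 591 (541 to 644) and 739 (677 to 804) CPM. All chains were thus higher in the OLE library, and the intervals of the libraries did not overlap. The OLE-to-vehicle log2 ratio was 0.62 (0.47 to 0.77) for C1qa, 0.63 (0.46 to 0.80) for C1qb and 0.32 (0.15 to 0.50) for C1qc, and 0.54 (0.44 to 0.63) for the summed chains. A ratio of 0.5 or more was called higher, where a gene had 100 or more UMIs in vehicle and OLE together. Of the 4 members compared in microglia-like nuclei, 2 were called higher (C1qa and C1qb) and 0 lower. Of all 3678 genes compared in these nuclei 129 were higher (3.51%) and 90 lower (2.45%), with a median log2 ratio of -0.02. In the plot of ratios in microglia-like nuclei C1qa and C1qb lie in the upper tail of the distribution of all genes.

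**Figure D1:**
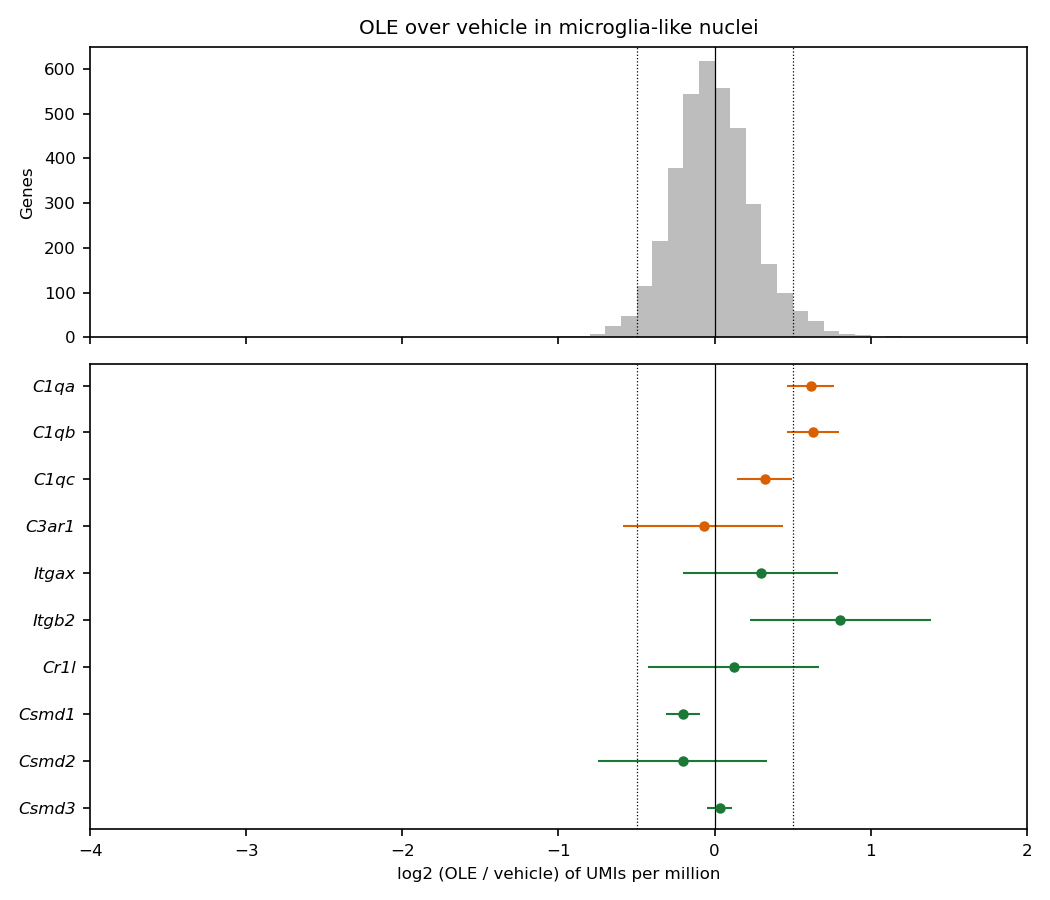
Log2 ratio of OLE to vehicle (CPM) in microglia-like nuclei, as a histogram of all 3678 genes compared (top) and as points with 95% counting intervals for the members (orange) and 6 other complement genes (green) with at least 100 UMIs (bottom). Dotted lines mark ratios of 0.5 in size; C1qa (0.62), C1qb (0.63) and Itgb2 (0.80) lie beyond the upper one.

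In microglia-like nuclei the ratio moved with the length of the gene, and C1q genes are short. Of the 93 compared genes with a span under 5 kb, 24.7% were higher in OLE and the median log2 ratio was 0.19. Among the 331 genes of 5 to 20 kb 9.37% were higher, at a median of 0.07, and among the 1374 genes over 100 kb 1.31%, at a median of -0.06. Taken relative to the median gene under 5 kb, the log2 ratios were 0.43 for C1qa, 0.44 for C1qb and 0.14 for C1qc, and 0 members were at 0.5 or more. C1qb spans 6059 bases and belongs to the 5 to 20 kb class, with its smaller median of 0.07. A ratio of C1qb relative to its own class was not computed. In the 49 genes under 5 kb whose level in microglia-like nuclei was more than 4 times that in glutamatergic-like nuclei, 14 were higher and C1qa ranked 12 and C1qc 18 by ratio. The part of gene length in the C1q ratios was not tested. The median microglia-like nucleus held 2441 UMIs in vehicle and 2348 in OLE, and the summed level of 14 neuronal genes, which measures RNA carried over from neurons, was 13744 and 13615 CPM. Haemoglobin RNA, from blood, was at 407 CPM in vehicle and 68.2 in OLE microglia-like nuclei, and its part in the ratios was not tested.

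C1q was found in nearly all microglia-like nuclei. At least 1 C1q UMI was present in 94.1% of vehicle (91.0% to 96.4%) and 98.9% of OLE nuclei (96.8% to 99.8%). The same share in glutamatergic-like nuclei, which should lack C1q, was 18.8% and 16.5%, at median depths of 21093 and 19462 UMIs. With 1000 UMIs drawn at random from each nucleus, and 2 shallower microglia-like nuclei of each library left out, the shares were 76.6% and 88.4% in microglia-like nuclei and 1.09% and 0.914% in glutamatergic-like nuclei. The median microglia-like nucleus held 4 C1q UMIs in vehicle (quartiles 2 and 6, highest 40) and 6 in OLE (quartiles 4 and 9, highest 79). All 3 chains were found together in 40.1% of vehicle (34.9% to 45.6%) and 58.9% of OLE nuclei (52.8% to 64.8%). After thinning these shares were 10.7% (7.59% to 14.5%) and 18.3% (13.8% to 23.4%), with intervals that overlapped, as the plot of chains per nucleus shows.

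**Figure D2:**
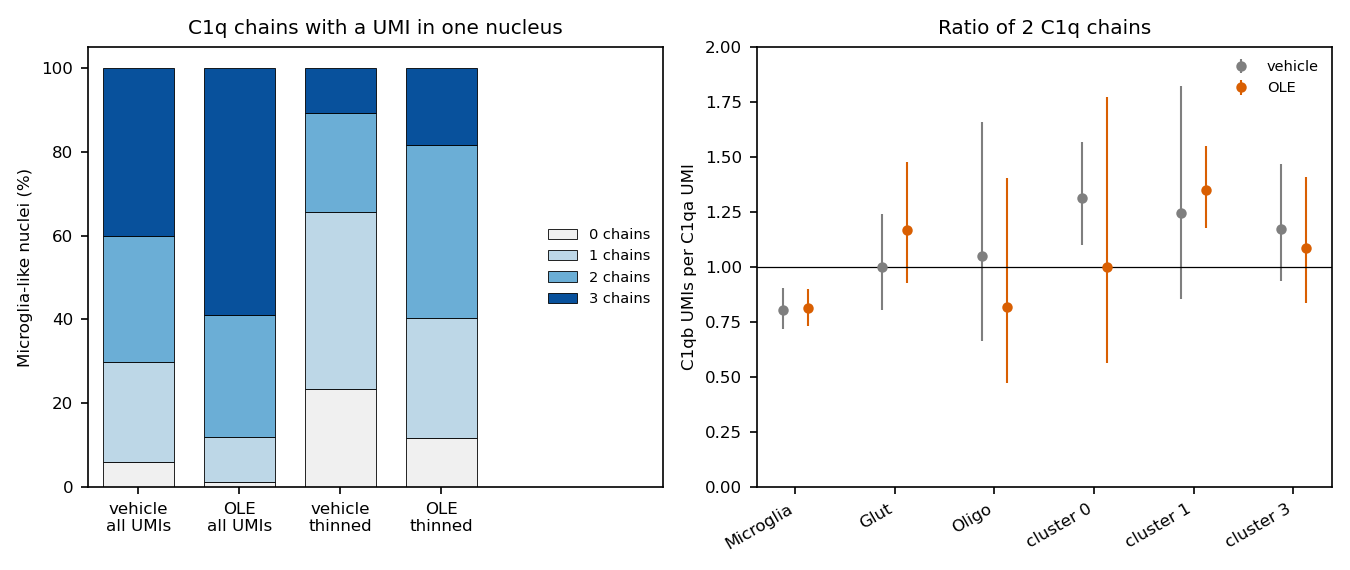
Left, share of microglia-like nuclei (%) with a UMI of 0, 1, 2 or 3 C1q chains, for all UMIs and after thinning to 1000 UMIs; the share with 3 chains was 40.1% in vehicle and 58.9% in OLE before thinning. Right, C1qb UMIs per C1qa UMI with 95% counting intervals, 0.806 and 0.814 in microglia-like nuclei and up to 1.35 in the unnamed clusters.

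Outside microglia C1q was low. C1qa was at 3.83 CPM in vehicle and 3.44 in OLE glutamatergic-like nuclei, so that its level in microglia-like nuclei was 196-fold (165 to 233) and 334-fold (279 to 403) higher. The corresponding folds were 158 and 233 for C1qb and 249 and 281 for C1qc. In oligodendrocyte-like nuclei C1qa was at 18.4 and 18.6 CPM, and in the other glia and vascular types between 9.0 and 28.5 CPM on 11 UMIs or fewer each. GABAergic-like nuclei had 21 and 41 C1qa UMIs, at 3.05 and 6.35 CPM, a log2 ratio of 1.06 (0.27 to 1.89) on fewer than 100 UMIs in all. Their summed chains were at 10.9 and 15.9 CPM on 75 and 103 UMIs, with a log2 ratio of 0.55 (0.11 to 1.00). In GABAergic-like nuclei 7.86% of all genes were higher. In glutamatergic-like nuclei the log2 ratio of the libraries was -0.16 (-0.49 to 0.17) for C1qa, 0.07 (-0.25 to 0.39) for C1qb and 0.15 (-0.25 to 0.55) for C1qc, where 5.91% of all genes were higher. For C1qa and C1qb these intervals of glutamatergic-like nuclei lay below those of microglia-like nuclei, while for C1qa that of GABAergic-like nuclei overlapped it.

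Much of the C1q RNA was not in microglia-like nuclei. They held 47.4% of all C1qa UMIs, 39.0% of C1qb and 46.0% of C1qc. The unnamed clusters held 944, 1192 and 728 UMIs of C1qa, C1qb and C1qc. In clusters 0 and 1 the 14 neuronal genes were at 41645 to 45591 CPM, against 49180 and 48538 CPM in glutamatergic-like nuclei. The summed chains were at 133 CPM in cluster 0 of vehicle and at 126 CPM in cluster 1 of OLE, and the log2 ratio between libraries was -0.18 (-0.56 to 0.18) in cluster 0 and 0.01 (-0.24 to 0.26) in cluster 1. In cluster 3, which was led by Ttr, ferritin and mitochondrial genes, the summed chains were lower in OLE, at 556 (504 to 612) CPM in vehicle and 379 (339 to 423) in OLE. The proportion of C1qb to C1qa was higher than in microglia-like nuclei in clusters 0 and 3 of vehicle. It was also higher in cluster 1 and glutamatergic-like nuclei of OLE. The intervals of these did not overlap those of microglia-like nuclei of the same library. C1qb gave 0.806 UMIs per C1qa UMI in microglia-like nuclei of vehicle (0.718 to 0.905) and 0.814 in those of OLE (0.734 to 0.902), against 1.31 in cluster 0 of vehicle (1.10 to 1.57) and 1.35 in cluster 1 of OLE (1.18 to 1.55). The smaller remainders of these clusters, at 1.00 in cluster 0 of OLE (0.564 to 1.77) and 1.25 in cluster 1 of vehicle (0.854 to 1.82), had intervals that overlapped those of microglia-like nuclei. In glutamatergic-like nuclei the proportion was 1.00 (0.806 to 1.24) in vehicle and 1.17 (0.929 to 1.48) in OLE. In cluster 3 it was 1.17 (0.938 to 1.47) in vehicle and 1.09 (0.837 to 1.41) in OLE. C1qc per C1qa was 0.827 (0.678 to 1.01) in cluster 0 of vehicle, which overlapped microglia-like nuclei of vehicle at 0.788 (0.701 to 0.885). In cluster 1 of OLE it was 0.855 (0.733 to 0.997), against 0.643 (0.575 to 0.718) in microglia-like nuclei of OLE.

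Clustering of the microglia-like nuclei alone gave a homeostatic-like subcluster of 168 vehicle and 135 OLE nuclei with 8 of 10 homeostatic markers raised, a disease associated microglia (DAM)-like subcluster of 157 and 118 nuclei with 12 of 15 DAM markers raised, a macrophage-like subcluster of 5 and 8 nuclei, and 9 and 9 nuclei rich in neuronal RNA without a name. The haemoglobin genes Hba-a1 and Hba-a2 were among the leading genes of the homeostatic-like subcluster, beside Tmem119, and the part of blood RNA in the contrasts was not tested. In vehicle, C1q was lower in DAM-like than in homeostatic-like nuclei. The summed chains were at 2377 (2235 to 2525) CPM in homeostatic-like and 1543 (1425 to 1668) in DAM-like nuclei of vehicle, a log2 ratio of -0.62 (-0.77 to -0.48). In OLE they were at 3068 (2883 to 3263) and 2812 (2629 to 3005) CPM, a log2 ratio of -0.13 (-0.26 to 0.01). The chains behaved alike in vehicle, with log2 ratios of -0.67 for C1qa, -0.53 for C1qb and -0.65 for C1qc.

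The OLE library was higher in both subclusters, by more in DAM-like nuclei. The log2 ratio of OLE to vehicle of the summed chains was 0.37 (0.24 to 0.49) in homeostatic-like and 0.87 (0.72 to 1.02) in DAM-like nuclei, and these intervals did not overlap. C1qa was at 931 and 1247 CPM in homeostatic-like and at 584 and 1142 in DAM-like nuclei. C1qb was at 718 and 1033 CPM in homeostatic-like and at 496 and 920 in DAM-like nuclei. C1qc was at 727 and 788 CPM in homeostatic-like nuclei, where its log2 ratio was 0.12 (-0.13 to 0.36). In DAM-like nuclei it was at 464 and 749.7 CPM, with a log2 ratio of 0.69 (0.41 to 0.98). With 1 library per group the difference between subclusters could not be tested over mice. The macrophage-like nuclei gave 22 C1q UMIs in vehicle and 92 in OLE, too few nuclei to compare.

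**Figure D3:**
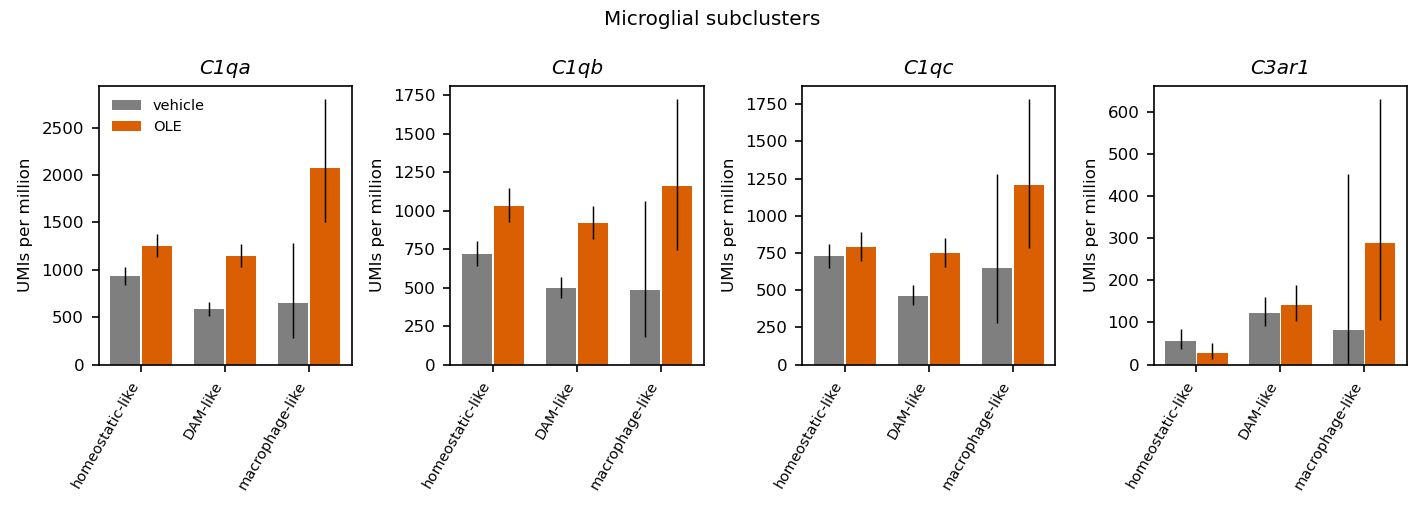
CPM of the C1q chains and C3ar1 in microglial subclusters of the vehicle (grey) and OLE (orange) libraries, with 95% counting intervals; each panel has its own scale. C1qa was at 584 CPM in DAM-like nuclei of vehicle and at 931 to 1247 CPM in the homeostatic-like nuclei of both libraries, and C3ar1 was higher in DAM-like (122 and 142) than in homeostatic-like nuclei (56.6 and 27.2).

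C4b, the component cut by the C1 proteases, was a gene of oligodendrocytes and astrocytes in these data, with 44.2% of its 3156 UMIs in oligodendrocyte-like nuclei. It lies on chromosome 17 (34728380 to 34743882, minus strand). The near-identical copy beside it, C4a, has no row in the feature tables, so reads that fit both genes could not be told apart. Oligodendrocyte-like nuclei gave 753 UMIs in 586 vehicle and 642 in 528 OLE nuclei, levels of 347 (322 to 372) and 362 (334 to 391) CPM. Astrocyte-like nuclei followed at 119.6 (96.5 to 146) and 170.5 (144 to 200.1), then oligodendrocyte precursor (OPC)-like nuclei at 67.5 and 84.5, and vascular leptomeningeal (VLMC)-like nuclei at 52.6 and 55.6 CPM. This order was the same in both libraries. The intervals of OPC-like and VLMC-like nuclei overlapped, and those of the types above them did not. Microglia-like nuclei had 19 and 11 C4b UMIs, and glutamatergic-like nuclei 2.90 and 2.46 CPM. Oligodendrocyte-like nuclei were thus 2.90-fold (vehicle) and 2.12-fold (OLE) above astrocyte-like nuclei, and 119-fold and 147-fold above glutamatergic-like nuclei.

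C4b was uneven among oligodendrocyte-like nuclei. No C4b UMI was found in 52.4% of nuclei in vehicle and 56.4% in OLE, while 44 and 42 nuclei held 5 or more, up to 10 and 12. The 10% of nuclei with most C4b UMIs held 47.4% and 51.9% of them. The variance of UMIs per nucleus was 3.02 and 3.51 times the mean, which includes differences in depth between nuclei. Thinned to 1000 UMIs, 23.2% and 26.7% of oligodendrocyte-like nuclei had a C4b UMI, against 0.311% and 0.269% of glutamatergic-like nuclei.

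Between the libraries C4b was level in oligodendrocyte-like nuclei, with a log2 ratio of 0.06 (-0.09 to 0.22), where 4.6% of 5830 genes were higher in OLE. In astrocyte-like nuclei it was higher in OLE, with 93 UMIs in 121 vehicle and 149 in 136 OLE nuclei and a log2 ratio of 0.51 (0.13 to 0.90), where 4.18% of 3012 genes were higher. This value turned to -0.19 at Louvain resolution 0.8, where 174 OLE nuclei took the astrocyte-like name and the vehicle nuclei were the same 121. The 174 nuclei included the 136 counted above, and gave 150 C4b UMIs instead of 149, at 104.7 instead of 170.5 CPM. The added nuclei thus brought hardly any C4b, and the level fell through the other UMIs that they added to the total. Whether the added nuclei were astrocytes was not examined. The log2 ratio was 0.03 after thinning and 0.14 as a mean over nuclei. In OPC-like nuclei C4b gave 52 and 54 UMIs, a log2 ratio of 0.32 (-0.25 to 0.90), where 4.72% of genes were higher.

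**Figure D4:**
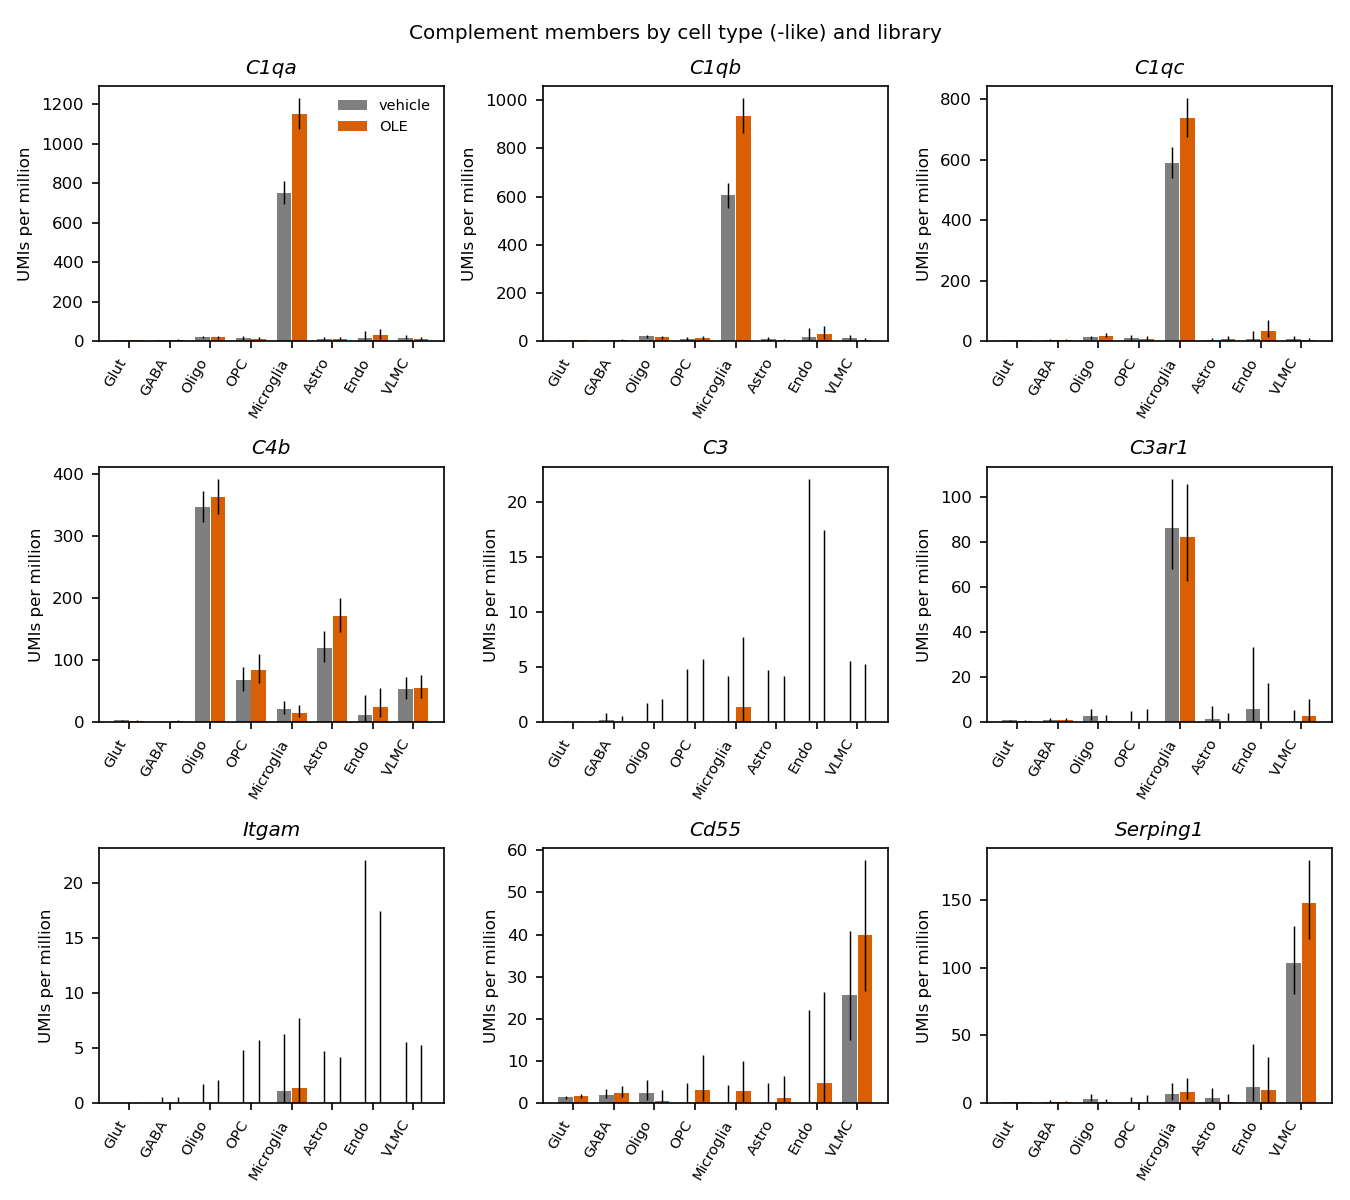
CPM of the 9 members in 8 cell types of the vehicle (grey) and OLE (orange) libraries, with 95% counting intervals. Each panel has its own scale: microglia-like nuclei lead for C1q and C3ar1, oligodendrocyte-like for C4b and VLMC-like for Cd55 and Serping1, while C3 and Itgam have bars of at most 1.39 CPM.

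C3, the central component, was hardly detected. It lies on chromosome 17 (57203970 to 57228136) and gave 8 UMIs among all those of both libraries, 3 in vehicle and 5 in OLE, of which 2 were in named cell types, 1 in a GABAergic-like and 1 in a microglia-like nucleus. In astrocyte-like nuclei it gave 0 UMIs, which allows a level of up to 3.86 CPM in vehicle and 3.43 in OLE. The 0 UMIs in vehicle microglia-like nuclei allow up to 3.4 CPM, and the 1 UMI in OLE was a level of 1.39 CPM (0.0352 to 7.75). With so few UMIs no difference in C3 between cell types or libraries was detectable.

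C3ar1 encodes the receptor of the fragment C3a and lies on chromosome 6 (122847138 to 122856161). It was a microglial gene, with 76 UMIs in vehicle and 59 in OLE microglia-like nuclei, at 86.2 (67.9 to 108) and 82.1 (62.5 to 106) CPM, 119-fold and 146-fold above glutamatergic-like nuclei. A C3ar1 UMI was present in 15.3% and 14.8% of microglia-like nuclei and in 1.5% and 1.18% of the deeper glutamatergic-like nuclei. After thinning these shares were 7.12% and 8.21%, and 0.104% and 0.108%. OLE and vehicle did not differ beyond counting error, with a log2 ratio of -0.07 (-0.59 to 0.44). C3ar1 was higher in DAM-like than in homeostatic-like nuclei of both libraries, opposite to C1q in vehicle. It gave 50 against 25 UMIs in vehicle, at 122 and 56.6 CPM, a log2 ratio of 1.11 (0.39 to 1.86). In OLE it gave 44 against 9 UMIs, at 142 and 27.2 CPM, a log2 ratio of 2.38 (1.33 to 3.60). The intervals of these 2 log2 ratios overlapped.

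Itgam encodes CD11b, the alpha chain of complement receptor 3 and a common protein marker of microglia, yet only 2 UMIs were assigned to it, 1 in a microglia-like nucleus of each library. The gene lies on chromosome 7 (128062640 to 128118491, plus strand), and 55809 of its 55852 bases are shared on the same strand with the annotated gene Gm49368. Gm49368 gave 8 and 4 UMIs in microglia-like nuclei. Reads from the shared bases fit both genes, so the level of Itgam cannot be read from these tables. Its partner Itgb2, the beta chain shared by complement receptors 3 and 4, gave 45 UMIs in vehicle and 64 in OLE microglia-like nuclei, at 51.0 and 89.0 CPM, a log2 ratio of 0.80 (0.23 to 1.39). Itgax, the alpha chain of complement receptor 4 and a gene of the DAM state, gave 70 UMIs in each library, a log2 ratio of 0.29 (-0.20 to 0.79).

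The regulators among the members, Serping1 and Cd55, were highest in VLMC-like nuclei, the fibroblast-like cells of the brain covering. This cluster had 6 VLMC markers raised, with Bnc2, Ranbp3l and Slc47a1 among its leading genes, and also 5 raised markers of astrocytes. Serping1, which encodes C1 inhibitor, the inhibitor of the C1 proteases, lies on chromosome 2 (84765387 to 84775444). It gave 69 UMIs in 87 vehicle and 104 UMIs in 85 OLE nuclei, at 104 (80.6 to 131) and 148 (121 to 179.5) CPM. A Serping1 UMI was present in 44.8% and 52.9% of VLMC-like nuclei, and in 1.25% and 1.61% of glutamatergic-like nuclei, over which its level was 196-fold higher in each library. After thinning the shares in VLMC-like nuclei were 12.6% and 11.8%. The log2 ratio was 0.52 (0.06 to 0.98), where 10.7% of the 2941 genes compared were higher in OLE and 6.39% were lower. The part of gene length in this ratio was not tested. Without removal of doublets the levels were closer together, at 92.1 and 118 CPM, with a log2 ratio below 0.5. Microglia-like nuclei had 6 Serping1 UMIs in each library, and endothelial-like nuclei had 2.

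Cd55, which encodes a membrane protein that speeds the decay of C3-cutting enzymes, lies on chromosome 1 (130439027 to 130462744), with 169 bases shared with the antisense gene Gm16083. It gave 17 UMIs in vehicle and 28 in OLE VLMC-like nuclei, at 25.5 (14.9 to 40.9) and 39.9 (26.5 to 57.7) CPM, 18.1-fold and 24.4-fold above glutamatergic-like nuclei. The intervals of the libraries overlapped, and the UMIs were fewer than the minimum of 100 for a comparison. In glutamatergic-like nuclei it gave 64 and 67 UMIs, at 1.41 and 1.63 CPM, a log2 ratio of 0.21 (-0.30 to 0.73). Its close copy Cd55b gave 11 and 10 UMIs there, and reads that fit both genes could not be told apart. Microglia-like nuclei had 0 Cd55 UMIs in vehicle, which allows up to 3.4 CPM, and 2 in OLE.

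Of 41 other complement genes, 40 were in the feature tables. In microglia-like nuclei 7 were compared, 1 was called higher (Itgb2) and 0 lower, against 3.51% and 2.45% of all genes. None of 17 genes was called in either direction in glutamatergic-like nuclei, where 5.91% of all 14185 genes were higher and 63 genes were lower. Nor was any of 7 called in oligodendrocyte-like nuclei, where 4.6% of 5830 genes were higher and 103 genes were lower. With so few genes, a count of none does not set the list apart from all genes. The Csmd1, Csmd2 and Csmd3 genes, which encode large membrane proteins with complement control repeats, had the highest counts of the list, and Csmd1 and Csmd3 were compared in all 8 types. Csmd1 was at 7696 and 7349 CPM in glutamatergic-like and at 7410 and 7008 in OPC-like nuclei. Cfb and Cfd, which encode proteins of the alternative pathway, gave 0 UMIs in named cell types.

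Clu, clusterin, which blocks the terminal complex and carries lipid, had a log2 ratio above 0 in the 6 types in which it had 100 UMIs, and one of 0.5 or more in 4 of them. In astrocyte-like nuclei it was at 468 and 826 CPM, a log2 ratio of 0.82 (0.64 to 1.01). Clu was not examined at Louvain resolution 0.8, where more OLE nuclei took the astrocyte-like name. The log2 ratio was 1.5 (1.10 to 1.92) in VLMC-like, 1.15 (0.66 to 1.65) in OPC-like, 0.72 (0.46 to 0.97) in GABAergic-like, 0.46 (0.33 to 0.59) in glutamatergic-like and 0.33 (-0.13 to 0.79) in oligodendrocyte-like nuclei. Of all genes compared in VLMC-like nuclei, 10.7% were higher and 6.39% lower. Astrocyte-like nuclei had 4.18% of their genes higher, GABAergic-like nuclei 7.86% and OPC-like nuclei 4.72%. In the unnamed clusters 0, 1 and 3 the log2 ratio of Clu was 0.38 (0.02 to 0.72), 0.07 (-0.19 to 0.35) and 0.54 (0.26 to 0.83). Vtn, vitronectin, another inhibitor of the terminal complex, was higher in endothelial-like nuclei, at 1558 and 2561 CPM with a log2 ratio of 0.72 (0.50 to 0.94), and in VLMC-like nuclei, at 131 and 245 CPM with a log2 ratio of 0.91 (0.53 to 1.30). The endothelial-like cluster had 21 vehicle and 42 OLE nuclei and also 7 raised markers of mural cells, which are known to express Vtn, and 11.8% of its 621 genes compared were higher and 17.6% lower. Csmd1 was lower there, at a log2 ratio of -0.76 (-1.01 to -0.51), and Csmd3 in VLMC-like nuclei, at -0.51 (-0.83 to -0.19). The neuronal genes were also lower there in OLE, at 15170 and 8799 CPM in endothelial-like and at 7311 and 5425 in VLMC-like nuclei, and haemoglobin RNA was at 89.9 and 5611 CPM in endothelial-like nuclei. Their part in these ratios was not tested, nor was that of gene length in the ratios of Clu and Vtn.

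Over the 16 values of 8 cell types and both libraries, C1qa and C1qb had nearly the same pattern, with a cosine similarity of 1.00, and C1qc was at 0.995 to both. Among 15456 other genes with at least 100 UMIs, the genes most like C1qa were Ctss, Trem2 and Slc15a3, and those most like C1qb were the same 3. Gna15, Ebf3 and Fcrls came first for C1qc, and Abi3, Samsn1 and Fgd2 for C3ar1, all at 0.999 or more. Serping1 was most like Col1a2, Car13 and Col13a1 (0.999 to 0.996), and Cd55 most like Col12a1, Ctxn3 and Gm26719 (0.993). C4b was less closely matched, with Col9a1, Phlpp1 and Usp54 at 0.986, 0.984 and 0.978. These values rest on the same libraries and mostly on the 1 type in which a gene is high.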

How the data were processed

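The authors isolated nuclei from frozen, pooled entorhinal cortex, built libraries with 10X Genomics 3′ v3 chemistry and aligned reads to an mm10 pre-mRNA reference, so that intronic reads count. They deposited whole-number UMI counts of 31053 genes per nucleus, without normalization. Their processing notes name Cell Ranger 3.0.1 and Seurat 4.0.4, while the matrix headers give software version 3.0.2. The members and lists used here were chosen with earlier results of these data known.

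Doublets were scored per library with Scrublet (scanpy 1.11.5). Its automatic threshold marked 0.104% of vehicle and 0.130% of OLE nuclei, so the top 5% of scores were removed instead. The sources used here do not say whether the deposited nuclei were already cleared of doublets. Counts of the remaining nuclei went through SCTransform (R 4.3.3 with Seurat 5.3.0 and sctransform 0.4.2, 3000 variable genes, complement genes left out) and were clustered by the Louvain method (30 components, 20 neighbours, resolution 0.4, and for microglia alone 15 components and resolution 0.3). A cluster took the class with the largest share of raised markers, those at 4 times or more the 10th percentile of clusters plus 1 CPM and found in at least 10% of its nuclei. It stayed unnamed with fewer than 3 raised markers, where another class had more markers among its top 10 genes, or where 50% or more of another class's markers were raised while its top 10 genes held fewer than 2 of its own. A subcluster needed 3 markers raised 1.5-fold, with a pseudocount of 20 CPM. These rules were settled with the clusters in view. UMIs were summed per cell type and library. Sums have exact Poisson intervals, and ratios and shares exact binomial (Clopper-Pearson) intervals, at 95%. A count of 0 was taken to allow 3 UMIs. With 1 library per group no p-value was computed. Genes named are all members, other complement genes with at least 100 UMIs, and for each member the 3 genes with the highest cosine similarity over cell types and libraries. 1 other complement gene is not reported here. Genes named with 0 or few UMIs and the overlapping genes were named after their values had been seen. Gene positions are from GENCODE vM21 (GRCm38), which holds 30934 of the gene identifiers (99.6%). The ratios and their intervals were tested on simulated Poisson counts. This checks the calculation only, as variation between nuclei and between mice was left out of the simulation. Sums, intervals and plots were made in Python 3.11.15 with pandas 2.3.3, scipy 1.17.1, numpy 2.4.6 and matplotlib 3.10.9.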

Additional observations from a re-analysis of the deposited data

How the results depend on the processing

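No paired analysis was possible because each group is 1 library. The log2 ratio of C1qa in microglia-like nuclei lay between 0.42 and 0.97 over 13 alternatives, that of C1qb between 0.44 and 0.89, that of C1qc between 0.12 and 0.69, and that of the summed chains between 0.35 and 0.87. Alternatives added after the data had been seen are the microglial subclusters and the scaling by short genes. In homeostatic-like microglia alone the values were 0.42 for C1qa, 0.12 for C1qc and 0.37 for the sum, and in DAM-like microglia alone 0.97, 0.89, 0.69 and 0.87 for C1qa, C1qb, C1qc and the sum. Relative to the median gene under 5 kb they were 0.43, 0.44, 0.14 and 0.35, the count of members at 0.5 or more fell from 2 to 0, and C4b in oligodendrocyte-like nuclei was at -0.23. C1qb and C4b span 6059 and 15503 bases, so this scaling does not match their length. Thinning to 1000 UMIs, a single random draw, gave 0.85 for C1qb, 0.27 for C4b in oligodendrocyte-like nuclei and 0.033 for C4b in astrocyte-like nuclei. C4b in astrocyte-like nuclei turned to -0.19 at resolution 0.8, where 174 instead of 136 OLE nuclei and the same 121 vehicle nuclei took that name. The added nuclei brought hardly any C4b, which went from 149 to 150 UMIs, and the level fell through the other UMIs that they added to the total. The ratio of DAM-like to homeostatic-like C1q in OLE was 0.0062 at microglial resolution 0.6. Of 122 alternative values in all, 90 stayed within the counting interval of the value reported or within 1.5 times a count. Subtraction of the neuronal profile raised the levels of C1q in microglia-like nuclei (C1qa to 1039 and 1596 CPM), since it takes neuronal RNA out of the total, and moved their ratios by less than the counting interval. Depth limits what can be said of C3, with 8 UMIs in all.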
